A study of Sordaria macrospora with 16 samples.

Results

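In wild-type mycelium of *Sordaria macrospora*, a filamentous ascomycete, 323 of 7729 genomic regions with histone H3 peaks (4.18%) had a peak in both wild-type H3 lists and in neither list of Δasf1, a strain that lacks the gene for the histone chaperone ASF1. These 323 wild-type-only H3 regions are described here. They were chosen by the presence and absence of H3 peaks: overlapping peaks of the 4 H3 lists were merged into regions, and at least 1 bp of peak in both wild-type lists and none in Δasf1 was required. Their H3 pattern between strains is therefore a description without a test. In comparison, 82 regions had H3 peaks in both Δasf1 lists only, and 2713 had a peak in all 4 lists.

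Chromatin immunoprecipitation (ChIP) was carried out with an antibody to H3 of any state and one to its form with 3 methyl groups on lysine 27 (H3K27me3). There were 2 replicates each for H3 in Δasf1, H3 in the wild type, H3K27me3 in Δasf1 and H3K27me3 in the wild type. Δasf1 was cultivated for 3 days and the wild type for 2 days, both at 27°C in liquid complete medium under constant light, so growth time and genotype cannot be told apart. Crosslinked chromatin was cut with micrococcal nuclease, which digests DNA between nucleosomes, at 230 U/ml for 105 min. Each of the 8 precipitated libraries has its own input library per the labels, and the inputs were not used here. The labels do not say whether replicates were separate cultures, so the spread between them may be technical.

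H3 is one of the 4 core histones around which DNA is wrapped in the nucleosome. Its precipitation recovers nucleosomes whatever their modification. ASF1 carries H3 together with H4 and hands them over for nucleosome assembly during replication, repair and transcription. H3K27me3 is set by Polycomb-type methyltransferases and marks silent chromatin in many eukaryotes. In the related fungus *Neurospora crassa*, large H3K27me3 domains lie near chromosome ends.

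The H3 lists of the 2 strains differed in ways that bear on the choice of these regions. Δasf1 replicates 1 and 2 had 6358 and 4401 H3 peaks, which covered 24.3% and 14.7% of the genome. Wild-type replicates 1 and 2 had 6367 and 6525 peaks, covering 20.8% and 31.2%. The smallest −log10 q was 2.05 in replicate 1 of both strains, and 1.02 and 1.03 in replicate 2 of Δasf1 and the wild type, so the authors' cutoff was looser in replicate 2. The lists hold no read counts and depth is unknown. Of 4572 regions with peaks in both wild-type lists, 4249 also had a Δasf1 peak: in both Δasf1 lists for 2713, in replicate 1 alone for 1366 and in replicate 2 alone for 170. Without Δasf1 replicate 1 the rule gave 1770 wild-type-only regions, and without Δasf1 replicate 2 it gave 503. The absence of a region from Δasf1 was thus decided mostly by replicate 1. The part played by the shorter list of Δasf1 replicate 2 was not tested.

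The wild-type-only regions were narrow and weakly enriched. Their widths ranged from 306 to 5362 bp with a median of 1212 bp, compared to 1614 bp for all H3 regions and 3003 bp for regions with peaks in all 4 lists. The Δasf1-only regions had a median of 1214 bp. In all, 134 of the 323 were under 1 kb, 131 between 1 and 2 kb and 58 at least 2 kb. The wild-type-only regions made up 5.98% of H3 regions under 1 kb, 5.54% of those of 1 to 2 kb and 1.86% of those of 2 kb or more. Only 2 of the 323 reached 5 kb, a width found in 7.87% of all H3 regions. Together they spanned 441.6 kb, or 1.12% of the genome. Regions with peaks in all 4 lists are merged from more lists. A wider region can also touch a Δasf1 peak more easily and be dropped. These widths thus depend on the rule and are given without a test.

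Enrichment is given as the authors' fold over the background of the peak caller, a value for each peak of its own list. At the wild-type-only regions its median was 1.38 in wild-type replicate 1, with a range of 1.28 to 1.63, and 1.26 in replicate 2, with a range of 1.19 to 1.53. The medians of all peaks were 1.41 and 1.28 in these lists. The lists held 330 peaks of replicate 1 and 323 of replicate 2 in these regions, with 7 regions holding 2 peaks of replicate 1. Of the 330 peaks, 89 (27.0%) had a −log10 q above the median of their list, and of the 323 peaks 117 (36.2%). Most of these peaks thus ranked in the lower part of their own lists. Since the peak calls chose the regions, these ranks are given without a test.

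**Figure D1:**
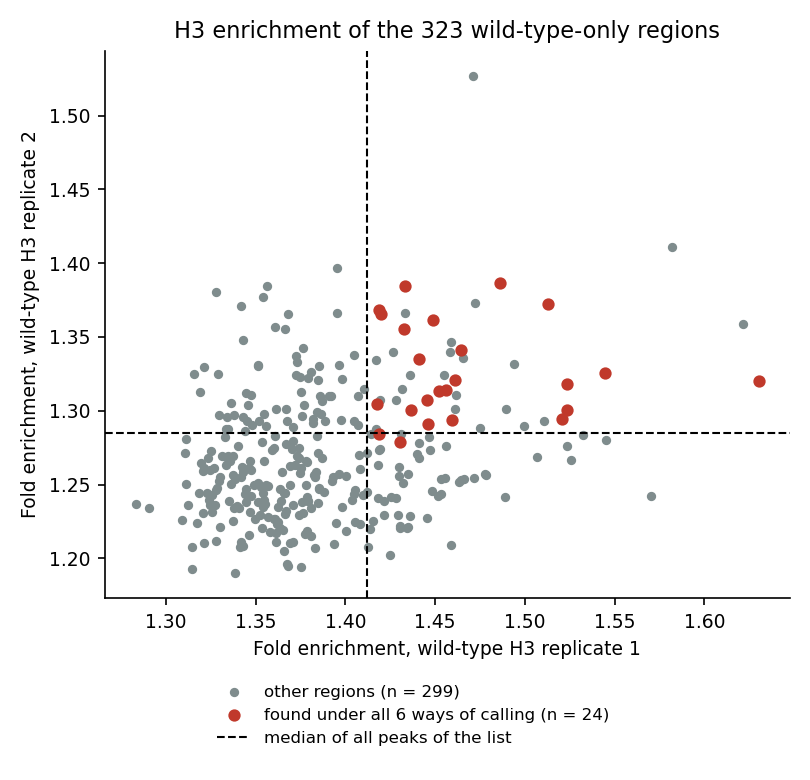
Fold enrichment of the 323 wild-type-only H3 regions in wild-type replicate 1 (horizontal) and replicate 2 (vertical), one point per region, with red points for the 24 regions found under all 6 ways of calling. Dashed lines show the medians of all peaks, 1.41 and 1.28, above the medians of these regions, 1.38 and 1.26. Some ways of calling required highly ranked peaks, so the red points lie high in part by choice.

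Both wild-type replicates marked the same stretch only in part. Peaks of replicate 1 covered a median of 73.4% of a region and peaks of replicate 2 a median of 95.5%. The stretch called in both had a median length of 516 bp, or 54.2% of the region. It made up at least 50% of the region in 172 cases and under 10% in 23. In 118 regions the peaks of replicate 1 lay wholly within those of replicate 2, and in 43 regions the reverse was found. The smallest overlap was 50 bp, in a region of 1697 bp on chromosome 4 at 2114684 to 2116380, where the rule was barely met.

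Most of these regions nevertheless lay close to H3 peaks of Δasf1. The median distance from a wild-type-only region to the nearest H3 peak was 2103 bp for Δasf1 replicate 1 and 3447 bp for Δasf1 replicate 2. Taking the nearer of both, 290 of the 323 regions lay within 5 kb of a Δasf1 peak and 5 lay more than 10 kb away. The same distance was not measured for other places of the genome. With 6358 and 4401 peaks in the Δasf1 lists, this closeness cannot be read as a trait of these regions. H3 regions were dense throughout, with a median gap of 1475 bp to the next one, and the wild-type-only regions had a median of 1560 bp to the next H3 region of any kind. Just inside the rule, a region on chromosome 7 at 1481044 to 1482799 was 26 bp from a peak of Δasf1 replicate 1, and one on chromosome 1 at 361771 to 364619 was 45 bp from a peak of the same list. Just outside, a region of 6186 bp on chromosome 2 at 4004366 to 4010551 was lost through a peak of Δasf1 replicate 1 that covered 329 bp (5.32%). On chromosome 3 at 241159 to 245816, 323 bp (6.93%) were covered by such a peak. In all, 6 regions with peaks in both wild-type lists were lost through Δasf1 peaks over less than 10% of their length.

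**Figure D2:**
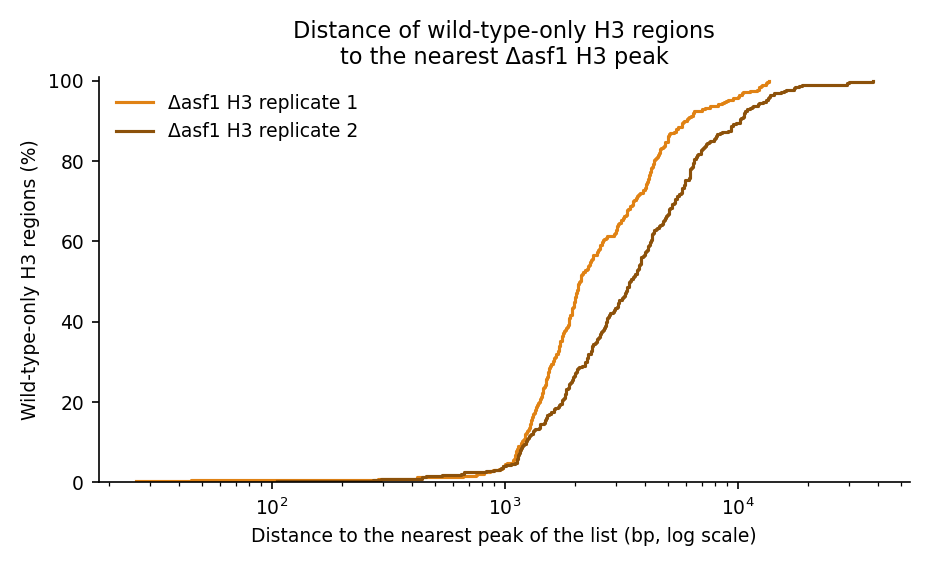
Cumulative share of the 323 wild-type-only H3 regions (vertical, %) by distance to the nearest H3 peak of each Δasf1 list (horizontal, bp, log scale). The curves pass 50% at 2103 bp for replicate 1 and 3447 bp for replicate 2, and few regions lie within 1 kb of a Δasf1 peak.

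The regions were found on all 7 chromosomes. Chromosome 3 had 63 of them, 5.50% of its H3 regions and 11.0 per Mb. Chromosome 1, the longest, also had 63, which was 3.40% of its H3 regions and 6.77 per Mb. The shares were 4.92% on chromosome 6 (41 regions), 4.73% on chromosome 4 (46), 4.10% on chromosome 7 (33), 3.73% on chromosome 2 (47) and 3.49% on chromosome 5 (30). H3 regions of any kind, whose counts are much larger and so vary less, numbered 190 to 200 per Mb on each chromosome. No test was made of the spread of the wild-type-only regions.

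**Figure D3:**
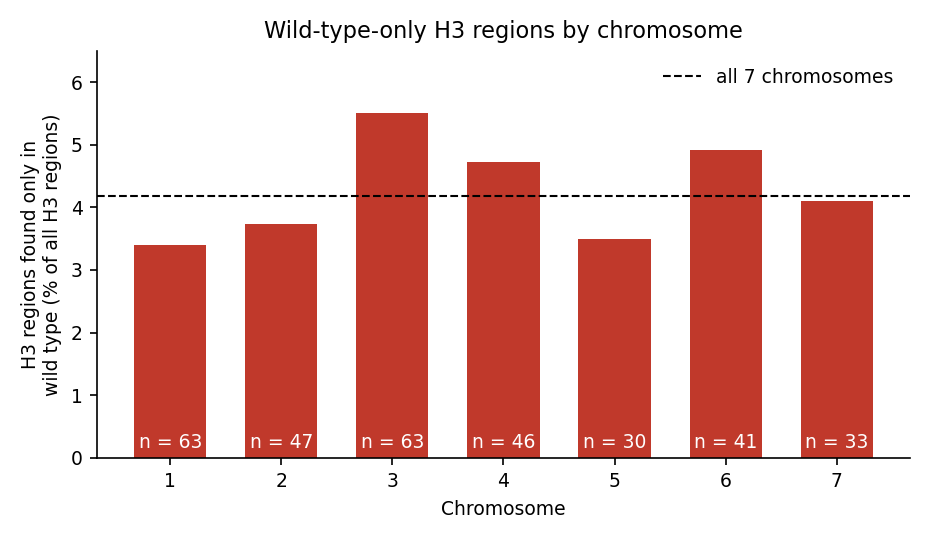
Share of H3 regions found only in the wild type on each chromosome (vertical, %), with the number of such regions in each bar. The dashed line marks 4.18%, the share over all 7 chromosomes, and chromosome 3 has the highest share with 5.50%.

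A stretch of chromosome 2 held none. At 700001 to 1300000, a window of 600 kb looked up after its values had been seen, 0 of 117 H3 regions were wild-type-only. Since this count led to the window, it is given as a description only. All 78 regions of this window with peaks in both wild-type lists also had a Δasf1 peak, against 4249 of 4572 over all chromosomes. Of the 117 regions, 5 were Δasf1-only, against 82 of all 7729 H3 regions. Of this window, 42.8% and 34.7% lay in H3 peaks of Δasf1 replicates 1 and 2, more than the 24.3% and 14.7% of the genome in these lists. For wild-type replicates 1 and 2 the values were 20.8% and 31.3%, close to those of the genome. On the rest of chromosome 2 the share of wild-type-only regions was 4.11% (47 of 1143).

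The regions were mostly single. The median distance to the nearest other wild-type-only region was 37.8 kb, and 45 of the 323 (13.9%) had another within 10 kb. These formed 21 pairs and 1 group of 3. Of the 646 H3 regions next to a wild-type-only region on either side, 30 (4.64%) were themselves wild-type-only, close to the 4.18% of all H3 regions. In windows of 100 kb, 179 of 399 held no such region, 143 held 1, 55 held 2, 20 held 3 and 2 held 5. The windows with 5 were both on chromosome 3, at 2500001 to 2600000 and at 3200001 to 3300000.

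The group of 3 lay on chromosome 6 within 9824 bp, at 4073853 to 4083676. Its regions measured 1853, 779 and 958 bp, and the nearest Δasf1 H3 peak was 10101, 12132 and 8857 bp away, so that 2 of them were among the 5 regions beyond 10 kb. Fold enrichment was 1.38, 1.37 and 1.40 in wild-type replicate 1, and 1.33, 1.27 and 1.24 in replicate 2. The middle region lay inside the gene SMAC4_09623, and the outer ones overlapped no gene, with SMAC4_09621 and SMAC4_08535 nearest. No H3K27me3 peak of Δasf1 touched any of the 3, whereas peaks of wild-type H3K27me3 replicate 2 covered 85.1% of the first and 90.0% of the last, and a peak of replicate 1 covered 10.2% of the first. The pairs with the shortest span lay on chromosome 6 at 3927223 to 3930674, over the genes SMAC4_08988 and SMAC4_08987, and on chromosome 1 at 8393969 to 8397440, over SMAC4_00556 and SMAC4_00557. The smallest gap between neighbours, 1082 bp, was found in a pair on chromosome 2 at 145928 to 151758.

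Near chromosome ends the share of these regions was close to that of all H3 regions. Within 100 kb of an end lay 7 of the 323 regions (2.17%), compared to 2.25% of all H3 regions and 3.55% of the genome. Within 500 kb lay 64 (19.8%), compared to 16.4% of all H3 regions and 17.7% of the genome. The outermost regions were on chromosome 3 at 8318 to 8902 and 11736 to 12565, and on chromosome 1 at 9291214 to 9291726. These 3 overlapped no gene, and peaks of wild-type H3K27me3 replicate 2 covered each of them to 100%, with fold enrichments of 2.05, 2.05 and 2.17. In Δasf1 H3K27me3 replicate 1 the first was covered to 47.7% and the others not at all, and in replicate 2 the shares were 0, 64.7% and 99.6%. Wild-type replicate 1 covered them to 97.3%, 67.6% and 100%, with fold enrichments of 1.36, 1.33 and 1.36, so values above 2 were found in 1 library.

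Genes were compared by position after the fit of the gene table to the coordinates of the lists had been checked. The 323 regions overlapped 310 different genes, of which 309 were protein-coding and 1, SMAC4_13757, was a tRNA gene. In all, 142 regions (44.0%) lay inside a single gene, 122 (37.8%) crossed the edge of a gene and 59 (18.3%) touched none. Of all H3 regions, 36.8% lay inside a single gene and 11.9% touched none. Genes held 66.4% of the length of the wild-type-only regions, compared to 74.5% for all H3 regions and 58.2% of the genome. This difference was larger among wider regions. Under 1 kb the share in genes was 71.1% for wild-type-only regions and 72.0% for all H3 regions, whereas from 2 kb it was 62.4% and 75.4%. Likewise, 12.1% of the wild-type-only regions of 2 kb or more touched no gene, compared to 3.46% of all H3 regions of this width. SMAC4_02726 was the only gene overlapped by 2 wild-type-only regions. The gene table gives locus tags without gene products or strand, so no function and no promoter can be assigned to these genes here.

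Among regions of at least 500 bp, the highest fold enrichment in the weaker wild-type replicate was found in a region of 961 bp on chromosome 3 at 1301761 to 1302721, in no gene and nearest to SMAC4_01824. Its fold enrichment was 1.47 and 1.53 in the wild-type replicates, but peaks of replicate 1 covered only 25.2% of it, and a peak of Δasf1 replicate 1 lay 1210 bp away. The second, on chromosome 4 at 1881110 to 1882957 inside SMAC4_01960, had 1.58 and 1.41. It was followed by chromosome 3 at 1111392 to 1113332 at the edge of SMAC4_01776, with 1.40 in both replicates. On chromosome 4 at 1514848 to 1515499, inside SMAC4_01863, fold enrichment was 1.49 and 1.39, and the nearest Δasf1 H3 peaks were 5793 and 6242 bp away. On chromosome 4 at 3118327 to 3119848, inside SMAC4_00105, peaks of both wild-type replicates covered at least 92.0%, with 1.43 and 1.38. The sixth, on chromosome 7 at 3305932 to 3307713 at the edge of SMAC4_08968, had 1.47 and 1.37. The 2 regions inside SMAC4_01863 and SMAC4_00105 are the ones of these 6 that were found under every way of calling described below.

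In the 4 widest regions, the stretch called in both wild-type replicates made up at most 43.5% of the length. The widest, 5362 bp on chromosome 6 at 3644137 to 3649498, spanned the 5 genes SMAC4_07631 to SMAC4_07635 and was covered to 27.7% by peaks of wild-type replicate 1 and to 73.8% by replicate 2, with an overlap of 80 bp. The next, 5255 bp on chromosome 7 at 1843976 to 1849230 over SMAC4_00688 and SMAC4_00689, was covered to 17.5% and 100%. A region of 4634 bp on chromosome 2 at 3955306 to 3959939, over SMAC4_02591 and SMAC4_02592, was covered to 62.8% and 71.5%. The fourth, 4154 bp on chromosome 1 at 623378 to 627531 over SMAC4_05184 and SMAC4_05185, was covered to 44.0% and 99.5%.

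How the lists were called decided which regions counted as wild-type-only. When 50% of a region had to be covered in each wild-type list and under 10% in each Δasf1 list, 200 of the 323 remained. At a common cutoff for the 4 H3 lists, a −log10 q of 2.05, 164 regions were wild-type-only, and 112 of the 323 overlapped them. With equal numbers of top peaks (4401 per list) 206 regions were wild-type-only, and only 85 of the 323 were among them. With the upper 50% of peaks of each list there were 265, but they shared only 47 with the 323. Joining peaks within 1 kb kept 292 of the 323. The ratio of wild-type-only to Δasf1-only regions, 3.94 with all peaks, was 4.08 under the coverage rule, 3.90 at the common cutoff and 4.54 with joined peaks. It was 2.07 with the upper 50% of peaks and 1.10 with equal numbers of top peaks. Without Δasf1 replicate 2 it was 1.01, with 503 wild-type-only and 496 Δasf1-only regions. The ratio was 4.17 without Δasf1 replicate 1, 5.04 without wild-type replicate 1 and 2.13 without wild-type replicate 2.

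**Figure D4:**
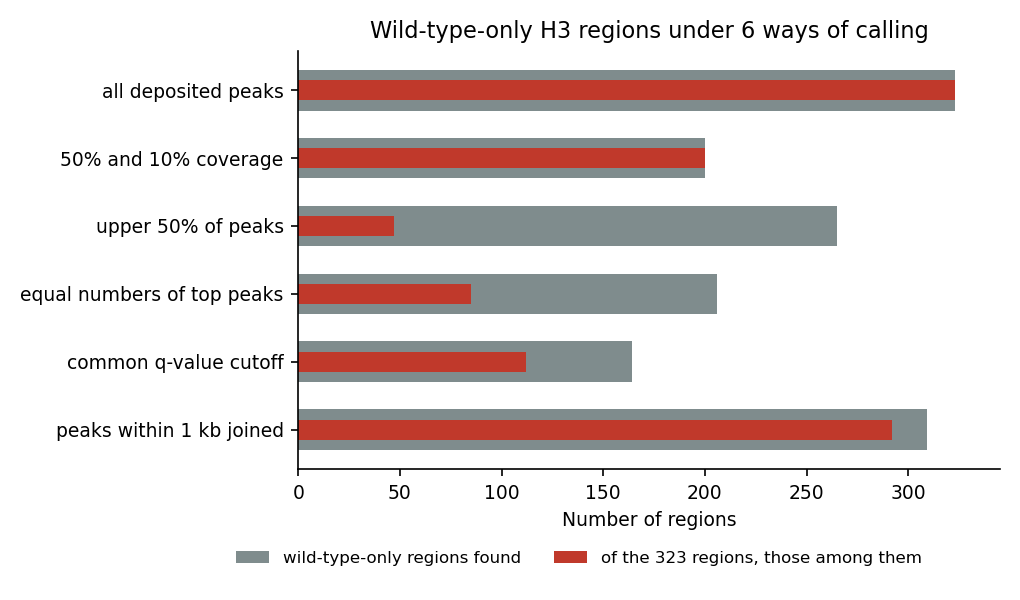
Number of wild-type-only H3 regions under 6 ways of calling (grey bars, horizontal axis) and how many of the 323 regions overlapped them (red bars). The upper 50% of peaks gave 265 regions but shared only 47 with the 323.

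Under these ways of calling and the original one, 6 in all, 24 regions (7.43%) were found each time. Their median width was 731 bp, and the stretch marked by both wild-type replicates made up a median of 84.5%. Their fold enrichment was 1.42 to 1.63 in replicate 1 and 1.28 to 1.39 in replicate 2. Of the 24, 16 lay inside a single gene, 4 crossed the edge of a gene and 4 touched none. The highest value of replicate 1, 1.63, was found on chromosome 3 at 3346267 to 3346660, where replicate 2 had 1.32. This list was made after the counts had been seen. The ways of calling required coverage in both wild-type lists and highly ranked peaks. The overlap and enrichment of the 24 regions therefore follow in part from how they were chosen.

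The H3K27me3 lists were not used to choose the regions, and the state of this mark was compared between strains. H3K27me3 is itself a form of H3, so a choice by H3 peaks in 1 strain is not independent of these lists. How far the rule shapes the comparisons of H3K27me3 given here and below was not tested. An H3K27me3 peak touched 144 and 181 of the 323 regions in Δasf1 replicates 1 and 2 (44.6% and 56.0%), and 112 and 165 in wild-type replicates 1 and 2 (34.7% and 51.1%). The smallest −log10 q of the H3K27me3 lists was 2.02 in replicate 1 of both strains. It was 1.00 and 1.01 in replicate 2 of Δasf1 and the wild type. The spread between replicates can thus not be told apart from this difference in cutoff. Mean shares were 50.3% ± 8.10 for Δasf1 libraries and 42.9% ± 11.6 for wild-type libraries (SD, n = 2 each), and the groups overlapped. The difference of 7.43 percentage points was smaller than the spread between replicates (exact two-sided permutation p = 0.667, with 0.333 the smallest that 2 against 2 allows). It was 9.91 points within replicate 1 and 4.95 points within replicate 2. By length, H3K27me3 peaks covered 29.5% ± 5.43 of the wild-type-only regions for Δasf1 libraries and 26.2% ± 8.07 for wild-type libraries (SD, n = 2 each), a difference of 3.25 points (exact permutation p = 0.667). Both differences turned negative, to −0.774 and −2.46 points, without wild-type H3K27me3 replicate 1, and the difference by length turned to −0.593 points without Δasf1 H3K27me3 replicate 2. They also turned to −5.73 and −5.44 points with the upper 50% of H3K27me3 peaks, to −9.44 and −6.36 points with equal numbers of top peaks and to −0.310 and −2.64 points at a common H3K27me3 cutoff. At the common cutoff, peaks touched 44.6% and 18.3% of the regions in Δasf1 replicates 1 and 2. The shares were 34.7% and 28.8% in wild-type replicates 1 and 2.

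Over all 7729 H3 regions the same comparison gave a wider gap between strains. There, 66.6% and 68.0% of regions had an H3K27me3 peak in Δasf1, compared to 54.8% and 51.7% in the wild type, a difference of 14.0 points (exact permutation p = 0.333). The share of wild-type-only regions was thus the lower one in both Δasf1 lists and in wild-type replicate 1, and close to that of all H3 regions in wild-type replicate 2 (51.1% and 51.7%). Set against all other H3 regions, their share differed by −23.0 and −12.5 points for the Δasf1 lists and by −21.0 and −0.645 points for the wild-type lists. These gaps overlapped between strains (difference −6.90 points, exact permutation p = 0.667).

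**Figure D5:**
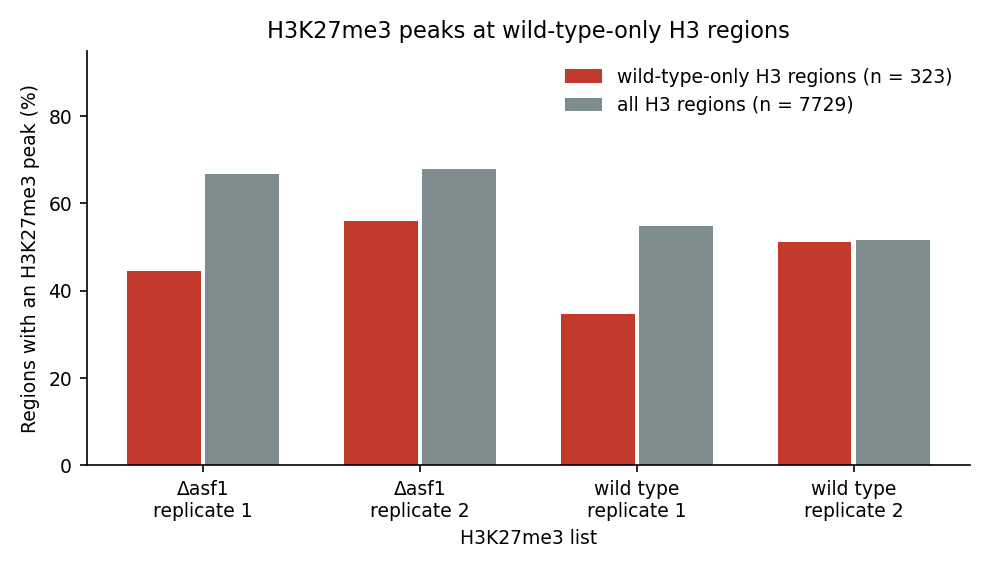
Share of regions with an H3K27me3 peak (vertical, %) in each H3K27me3 list, for the 323 wild-type-only H3 regions (red) and all 7729 H3 regions (grey). The red bars are lower than the grey ones in 3 of the 4 lists, and in wild-type replicate 2 both stand near 51%.

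The contrast with all H3 regions varied with width. Among regions under 1 kb, the wild-type-only ones had H3K27me3 peaks in 42.5% and 46.3% for Δasf1 replicates and in 34.3% and 47.8% for wild-type replicates, each above the shares of all H3 regions of this width, 41.9%, 42.9%, 29.2% and 38.8%. Among regions of 1 to 2 kb, the wild-type-only ones had H3K27me3 peaks in 41.2% and 59.5% for Δasf1 replicates and in 31.3% and 47.3% for wild-type replicates, each below the shares of all H3 regions, 60.2%, 64.8%, 49.2% and 48.0%. Among regions of 2 kb or more, the wild-type-only ones had 56.9% and 70.7% in Δasf1 and 43.1% in wild-type replicate 1, below the 89.3%, 88.4% and 77.5% of all H3 regions. In wild-type replicate 2 they had 67.2%, against 63.8%.

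An H3K27me3 pattern specific to Δasf1 was about as frequent as at all H3 regions, and the share with a pattern specific to the wild type was higher. H3K27me3 peaks were found in both Δasf1 lists and neither wild-type list at 22 of the 323 regions (6.81%), against 7.21% of all H3 regions. The opposite pattern, H3K27me3 in both wild-type lists and neither Δasf1 list, was found at 15 (4.64%), against 2.29% of all H3 regions. An H3K27me3 peak was present in all 4 lists at 20 regions (6.19%, against 25.1% of all H3 regions), and 37 regions (11.5%, against 9.87%) had none in any list. The remaining regions had peaks in 1, 2 or 3 lists. Counting lists, 122 regions (37.8%, against 38.4% of all H3 regions) had H3K27me3 peaks in more Δasf1 lists than wild-type lists. Fewer Δasf1 lists had a peak at 81 regions (25.1%, against 15.3%), and the numbers were equal at 120 (37.2%, against 46.3%). These patterns were not compared within classes of width. Regions of 2 kb or more made up 18.0% of the wild-type-only regions and 40.4% of all H3 regions.

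The Δasf1-specific H3K27me3 pattern was most complete in 4 wild-type-only H3 regions. On chromosome 3 at 2287755 to 2288368, inside SMAC4_00778, H3K27me3 peaks covered 99.8% and 98.7% in the Δasf1 replicates and 0 in the wild type, while H3 peaks took up 84.9% and 100% in the wild-type replicates and lay more than 10 kb away in Δasf1. On chromosome 3 at 3780462 to 3782042, inside SMAC4_00950, the Δasf1 H3K27me3 peaks covered 94.5% and 96.7%. On chromosome 6 at 2472496 to 2473832, inside SMAC4_03500, they covered 97.4% and 93.3%, and on chromosome 1 at 1555719 to 1557865, at SMAC4_04946, 84.9% and 84.5%. Fold enrichment of these H3K27me3 peaks was 1.27 to 1.41. At these 4 places the mark had peaks in Δasf1 while no H3 peak was called there. A missing peak call does not show that H3 was missing. The nearest Δasf1 H3 peak lay 1500 bp from the region in SMAC4_00950 and 1666 bp from that in SMAC4_03500. It lay 1216 bp from the region at SMAC4_04946, where the wild-type H3 peaks overlapped over only 82 bp (3.82%).

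The wild-type-specific H3K27me3 pattern was most complete in another 4. On chromosome 7 at 4028722 to 4029645, at the edge of SMAC4_07659 and 63.8 kb from the chromosome end, H3K27me3 peaks of Δasf1 covered 0 and those of the wild-type replicates 98.9% and 100%. On chromosome 2 at 268158 to 269139, inside SMAC4_06870, the wild-type peaks covered 95.2% and 100%. They covered 100% and 87.7% on chromosome 4 at 4904053 to 4904435, inside SMAC4_09216. On chromosome 6 at 335921 to 337155, at the edge of SMAC4_09279, the shares were 55.0% and 100%. Here both H3 and H3K27me3 peaks were present in the wild type and absent in Δasf1. The regions at SMAC4_07659, SMAC4_06870 and SMAC4_09279 were touched by H3K27me3 peaks of 5 kb or more in wild-type replicate 2, so their 100% in that list comes from wide peaks.

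Wide H3K27me3 peaks touched some of the regions. In wild-type H3K27me3 replicate 2, 23 of the 323 regions (7.12%, against 4.84% of all H3 regions) were touched by peaks of 5 kb or more, which numbered 21. The corresponding count was 0 in both Δasf1 lists, against 1.79% and 2.72% of all H3 regions in replicates 1 and 2, and 1 (0.310%, against 1.94%) in wild-type replicate 1. The 23 regions lay on all 7 chromosomes, 4 of them within 100 kb of an end and 13 within 500 kb. Of all 323 regions, 7 and 64 lay within these distances, and of all H3 regions 2.25% and 16.4%. An H3K27me3 peak of any width was present at 8 and 16 of them in Δasf1 replicates 1 and 2 and at 18 in wild-type replicate 1. Among all H3K27me3 peaks that touched the 323 regions, the median fold enrichment was 1.39 and 1.31 for the Δasf1 lists and 1.35 and 1.34 for the wild-type lists. These medians lay below those of the whole lists, 1.43, 1.32 and 1.37, except in wild-type replicate 2, where the list had 1.32.

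By position relative to genes, H3K27me3 peaks of Δasf1 replicate 1 touched 51.4% of the 142 wild-type-only regions inside a single gene and 22.0% of the 59 outside genes. In Δasf1 replicate 2 the shares were 51.4% and 57.6%, and in the wild-type replicates they were 31.7% and 47.9% inside a gene and 35.6% and 55.9% outside. The low value outside genes was thus seen in 1 of the 4 lists.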

How the data were processed

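Broad peak lists of 8 libraries were used. Per the labels, reads were processed with fastp, Bowtie2 and MACS2, whose versions and settings are not given in the sources used here. The deposited lists give positions on the assembly named Sm_v04_wtN, a score, a fold enrichment (a ratio) over the caller's background, and both p-value and q-value as −log10. The authors deposited 1 list per library. Positions are counted from 1. Depth is unknown, since the lists hold no counts.

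Overlapping H3 peaks were merged into regions, and covered length was summed per list, with pandas 2.3.3, NumPy 2.4.6 and SciPy 1.17.1 under Python 3.11.15 (figures: matplotlib 3.10.9). The code was tested on simulated data. H3K27me3 shares were compared by an exact two-sided permutation test over libraries (6 assignments). The regions, comparisons and alternatives were chosen with earlier results of these data known. Alternatives were stricter coverage, the upper 50% or equal numbers of peaks, a common cutoff, joined peaks, a replicate block and each library left out; the sets at the common H3 cutoff and found each time were added after seeing the data.

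Genes were taken from 10804 entries of RefSeq assembly ASM3387043v1. Since assembly names differ, peaks were shifted along the chromosomes by up to 5 kb. In 56 of 56 tests of 1 chromosome in 1 list, genes held most peak length at a shift within 100 bp, and the median held was 76.5% unshifted and 59.8% at 5 kb. No genome sequence was used.

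Named regions were the 6 with the highest enrichment in the weaker wild-type replicate among those of at least 500 bp, the 4 widest, the 3 nearest to an end, those of the 3 densest clusters, and those with the most complete H3K27me3 pattern specific to either strain (4 each), with the genes in or nearest to them. All other regions named were chosen after their values had been seen.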

Additional observations from a re-analysis of the deposited data

How the results depend on the processing

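The number of wild-type-only H3 regions, 323, became 200 under the stricter coverage rule, 206 with equal numbers of top peaks and 164 at the common cutoff, a −log10 q of 2.05. It ranged from 503 to 1770 when 1 H3 library was left out. Upper 50% of peaks (265) and joined peaks (309) kept it within 1.5 times.

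The difference in H3K27me3 peaks between Δasf1 and the wild type, 7.43 points by number and 3.25 by length, turned to −5.73 and −5.44 with the upper 50% of H3K27me3 peaks, to −9.44 and −6.36 with equal numbers of top peaks, and to −0.310 and −2.64 at a common cutoff. Leaving out 1 H3K27me3 library gave −0.774 to 15.6 points by number and −2.46 to 8.96 by length. The cause of these turns was not tested. With replicate number as a block the differences were the same, 7.43 and 3.25 points, with an exact sign-flip p of 0.5, the smallest possible. Same-numbered H3K27me3 libraries deviated together only weakly over H3 regions (correlation 0.11), and the labels do not say that the numbers pair the samples. In 2 sets formed after the data had been seen, the difference by number was 12.8 points at regions wild-type-only at the common H3 cutoff and 18.8 points at the 24 regions found each time (exact permutation p = 0.333 for both).

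The share of regions with another within 10 kb, 13.9%, was 9.60% at 5 kb and 35.6% at 20 kb. The share within 100 kb of an end, 2.17%, was 0.929% at 50 kb and 5.57% at 200 kb. The share of length in genes, 66.4%, was 85.5% with 1 kb on either side of genes, where all H3 regions had 92.2% and the genome 85.0%.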
